A study of Mus musculus with 42 samples.

Results

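The mitochondrial machinery of oxidative phosphorylation is built from proteins encoded in the nucleus and in the mitochondrion, and the genes described here are the nuclear ones. They were taken as the rows of the expression matrix whose symbol begins with Nduf, Uqcr or Atp5, is Sdha, Sdhb, Sdhc or Sdhd, or begins with Cox followed by a digit from 4 to 8, provided that the row carried no numbered copy or pseudogene suffix and reached at least 5 CPM (read counts scaled to a common library size) in at least 3 libraries. This gave 90 genes of 22186 in the table: 39 subunits of complex I, 8 complex I assembly factors, 4 subunits of complex II, 8 of complex III, 14 of complex IV and 17 of the ATP synthase. Of 103 matching symbols, 8 were suffixed copies or pseudogenes and 5 (Ndufs3, Cox4i2, Cox7b2, Ndufa4l2 and Ndufa11b) reached 5 CPM in no library. The copy row Ndufs3_1, left out by the rule, reached 62.8 CPM in its highest library, so how reads were split between the rows could move the level of Ndufs3. Of the 90, 87 were at 5 CPM or more in all 42 libraries. The exceptions were the complex IV isoforms Cox6a2, Cox6b2 and Cox7a1, and Cox6a2 passed only through the granulosa cell libraries. The subunits encoded by mitochondrial DNA, and Cox8b and Cox8c, were not analysed here.

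Electrons from NADH enter the chain at complex I and electrons from succinate at complex II, pass through complex III and cytochrome c, and reach oxygen at complex IV. The protons moved across the inner membrane on the way return through the ATP synthase, which makes ATP. Some complex IV subunits exist as pairs of isoforms that differ between tissues, and pluripotent cells in culture are known for leaning on glycolysis beside respiration.

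RNA-seq libraries of poly(A) RNA were made from cultured mouse cells exposed to bisphenol S (BPS), an endocrine disrupting analogue of bisphenol A, or to its ethanol vehicle, with 3 libraries in each of 14 groups. In the dose series, induced pluripotent stem cells (iPSCs) received vehicle or 1, 50 or 100 µM BPS, and in a second experiment iPSCs received 1 µM BPS or vehicle. Primary Sertoli cells (somatic cells of the testis cord) and granulosa cells (somatic cells of the ovarian follicle) received 1 µM BPS or vehicle, and so did primordial germ cell-like cells (PGCLCs) made from the iPSCs by directed differentiation. A further pair of PGCLC groups, called derived PGCLCs below, came from iPSCs that had received 1 µM BPS or vehicle before differentiation and had no exposure of their own. Exposure lasted 24 h and was followed by 24 h of recovery, or by 8 h for directly exposed PGCLCs. All iPSCs were XY cells of a single line reprogrammed from fibroblasts of a single fetus and carrying an inducible reprogramming cassette, and were grown without feeder cells. The Sertoli (XY) and granulosa (XX) cultures each came from about 5 littermates pooled at postnatal day 20 and split into flasks, and PGCLCs were sorted on surface FUT4 and ITGB3. No source used here says that the 3 libraries of a group came from separate animals, so p-values measure the spread between these libraries, which may be technical.

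Libraries held between 26693847 and 44524376 reads assigned to genes, and the 90 genes took between 0.697% and 1.67% of them. Summed marker levels differed between the labelled cell types, but not every marker did so. The 6 pluripotency genes summed to between 3985 and 4337 CPM in iPSCs, against 28.2 to 32.7 CPM in Sertoli cells. The 7 Sertoli markers summed to between 2703 and 2898 CPM in Sertoli cells, against 427 to 462 CPM in granulosa cells, with Cldn11 the largest part (1508 CPM with vehicle), while Rhox5 was at 0.382 CPM in vehicle Sertoli cells, against 94.7 CPM in vehicle iPSCs. The 5 granulosa markers summed to between 1542 and 1704 CPM in granulosa cells, with Inha the largest part (1300 CPM with vehicle), whereas Fshr averaged 3.93 CPM and Inhbb 105 CPM in vehicle Sertoli cells, against 0.451 and 93.1 CPM in vehicle granulosa cells. Granulosa cultures also held 2204 to 2565 CPM of 5 smooth muscle markers and 1425 to 1671 CPM of 3 fibroblast markers. The 6 PGCLC markers summed to between 248 and 254 CPM in vehicle PGCLCs, against 194 to 199 CPM in vehicle iPSCs of the second experiment, but Dppa3 (20.8 CPM, against 37.9 CPM) and Prdm14 (42.6 CPM, against 49.1 CPM) had lower means in PGCLCs. In these bulk cultures, fewer cells of a type and less RNA per cell cannot be told apart. The iPSC library of the second experiment labelled 1 µM BPS replicate 2 stood apart, with 17822 CPM summed over the 90 genes, against 13219 and 13177 CPM in its fellow replicates, and 88 of the 90 genes were higher in it than in both. In the dose series the library of 1 µM BPS replicate 2 was likewise the highest of its group for 88 genes, at 14010 CPM summed, against 11879 and 12360 CPM.

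Promoter windows of 300 bases, from 250 before to 50 after the gene start in RefSeq (GRCm38.p6), were matched to 75 of the 90 genes. Windows are shown for the Cox6b pair, whose members moved differently with cell type and dose, and for an assembly factor and subunits of complexes I and II that fell at high dose. They are examples, and most genes that fell are not shown. Whether promoter motifs go with a fall or a rise was not tested. The letters searched on both strands were GCATGCGC (the core of the NRF1 motif), CCGGAAG (an ETS family motif) and AAGATGGCG (a YY1 motif), and capitals mark each match in either orientation.
Cox6b2 (chr7:4753045-4753344, minus strand): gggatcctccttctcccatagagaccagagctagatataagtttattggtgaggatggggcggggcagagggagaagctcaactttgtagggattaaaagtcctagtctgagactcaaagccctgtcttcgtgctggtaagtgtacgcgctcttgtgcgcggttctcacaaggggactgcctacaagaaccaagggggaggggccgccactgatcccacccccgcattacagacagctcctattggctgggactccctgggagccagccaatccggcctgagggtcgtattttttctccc
Cox6b1 (chr7:30626065-30626364, minus strand): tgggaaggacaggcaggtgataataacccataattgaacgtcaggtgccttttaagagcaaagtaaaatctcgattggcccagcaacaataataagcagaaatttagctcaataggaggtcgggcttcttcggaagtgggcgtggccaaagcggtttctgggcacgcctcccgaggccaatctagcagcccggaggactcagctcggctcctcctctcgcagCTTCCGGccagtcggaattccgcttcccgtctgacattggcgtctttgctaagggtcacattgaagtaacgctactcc
Ndufaf4 (chr4:24897833-24898132, plus strand): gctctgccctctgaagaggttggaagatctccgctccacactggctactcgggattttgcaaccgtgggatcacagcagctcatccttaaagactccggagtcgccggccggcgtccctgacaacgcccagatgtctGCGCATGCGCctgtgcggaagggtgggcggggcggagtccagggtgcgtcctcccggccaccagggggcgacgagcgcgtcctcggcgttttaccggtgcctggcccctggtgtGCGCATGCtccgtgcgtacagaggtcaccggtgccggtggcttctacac
Sdhb (chr4:140961021-140961320, plus strand): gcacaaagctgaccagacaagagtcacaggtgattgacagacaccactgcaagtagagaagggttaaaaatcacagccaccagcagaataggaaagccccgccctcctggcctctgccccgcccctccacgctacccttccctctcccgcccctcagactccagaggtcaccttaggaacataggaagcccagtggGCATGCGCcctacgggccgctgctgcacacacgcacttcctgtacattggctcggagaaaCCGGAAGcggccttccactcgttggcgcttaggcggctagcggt
Ndufs4 (chr13:114388045-114388344, minus strand): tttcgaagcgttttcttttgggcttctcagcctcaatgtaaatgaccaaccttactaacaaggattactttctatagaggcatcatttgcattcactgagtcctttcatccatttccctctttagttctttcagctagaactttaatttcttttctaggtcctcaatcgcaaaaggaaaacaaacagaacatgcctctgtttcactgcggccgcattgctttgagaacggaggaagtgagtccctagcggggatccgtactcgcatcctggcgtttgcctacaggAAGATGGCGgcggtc
The Ndufaf4 window held 3 NRF1 matches, 2 of them overlapping each other on opposite strands, the Sdhb window 1 NRF1 and 1 ETS match, the Ndufs4 window 1 YY1 match and the Cox6b1 window 1 ETS match, while the Cox6b2 window held none of these letters. Over the genes with a window, 12 (16.0%) held the NRF1 letters, against 3.05% of 27025 genes in the table of windows. Those 27025 genes were not filtered by expression, whereas the members had to reach 5 CPM, so these shares compare unlike sets. The ETS letters were in 18 (24.0%), against 9.93%, and the YY1 letters in 8 (10.7%), against 1.64%. At least 1 of the 3 was present in 31 (41.3%), against 13.6%, and in no window did matches of different motifs overlap. By complex, YY1 letters were found in 5 of 34 complex I genes, 1 of 7 assembly factors and 2 of 15 ATP synthase genes with a window. They were in none of the 11 complex IV, 5 complex III and 3 complex II genes with a window.

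The first question was how the levels of these genes differed between the cell types in culture with vehicle. Each cell type had its own medium, and all but the PGCLCs were treated in sealed flasks with gassed medium. Cell type and culture conditions therefore cannot be told apart in these comparisons. The sum over the 90 genes was 7753 to 8110 CPM in Sertoli cells, 8685 to 9046 CPM in granulosa cells, 9602 to 9741 CPM in PGCLCs and 9784 to 9863 CPM in derived PGCLCs, against 13353 to 13773 CPM in iPSCs of the second experiment and 12743 to 13339 CPM in iPSCs of the dose series. These ranges did not overlap between any of the other cell types and the iPSCs, and iPSCs also had the highest mean for most single genes. The highest vehicle mean lay in iPSCs of the second experiment for 45 of the 90 genes, in iPSCs of the dose series for 31, in Sertoli cells for 7, derived PGCLCs for 1 and granulosa cells for the other 6. The lowest lay in Sertoli cells for 50. The span was narrow for most genes, with a median ratio of 1.77 between the highest and the lowest group mean over 89 genes, and only Cox6b2 (22.7) and Cox7a1 (5.11) exceeded a ratio of 4, beside Cox6a2, which had no reads in the lowest group.

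**Figure D1:**
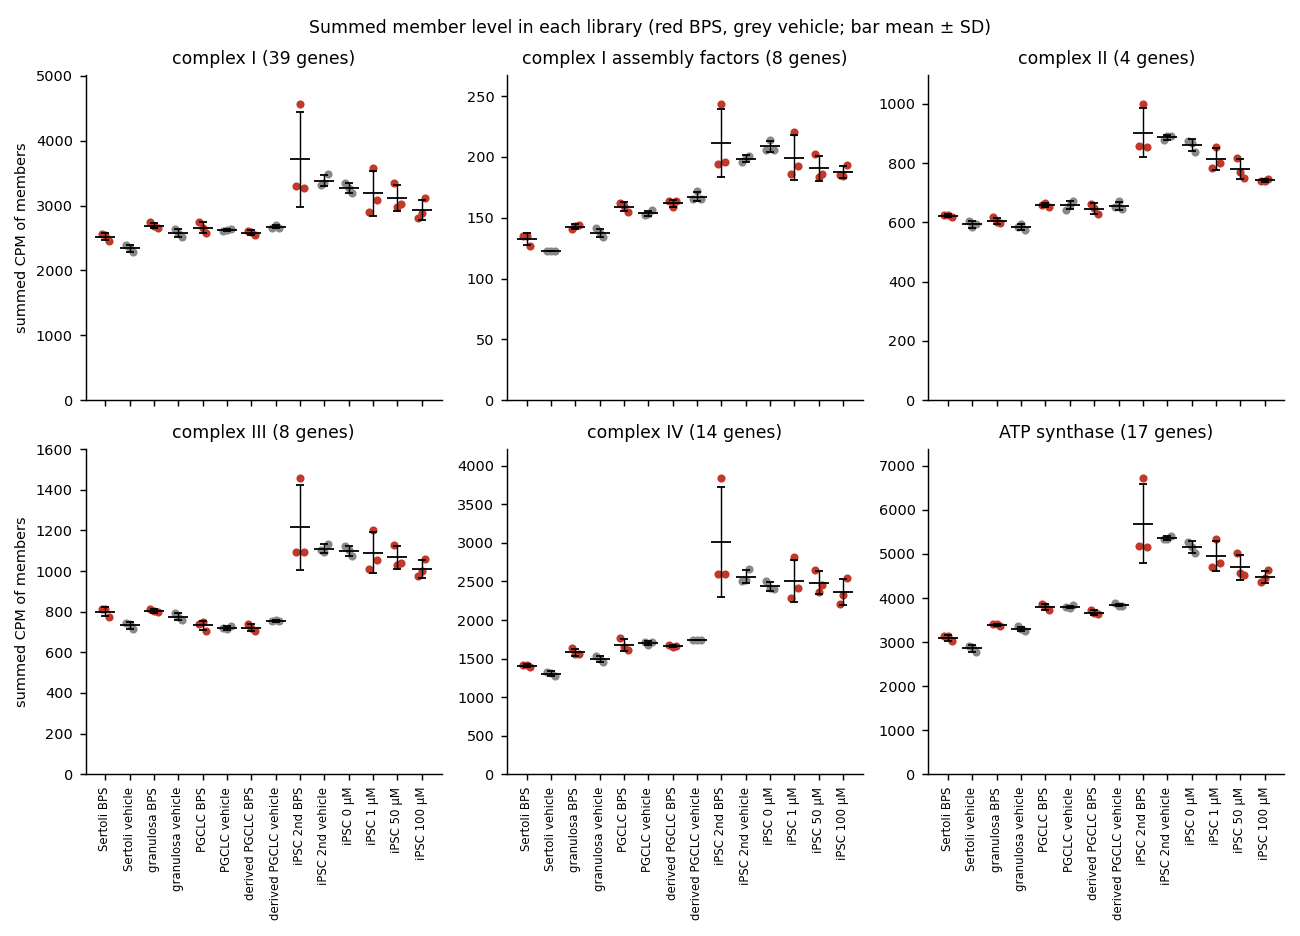
Summed CPM of the members of each complex (y axis, linear, from 0) in each of the 42 libraries, by group (x axis, other cell types left of iPSCs, BPS in red left of vehicle in grey, and the dose series from 0 to 100 µM). Each point is a library, with bars at the group mean ± SD of 3 libraries. All Sertoli, granulosa and PGCLC libraries lie below the iPSC libraries for the ATP synthase, and the high red point of the second iPSC experiment is 1 µM BPS replicate 2.

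Per length, the ATP synthase catalytic subunit Atp5b was the most abundant member in vehicle iPSCs of the second experiment, at 1170 CPM per kb of its principal transcript, followed among the leading members of the other complexes by the complex IV subunit Cox4i1 at 887, Ndufa4 at 364, the complex III hinge protein Uqcrh at 281 and the flavoprotein Sdha at 145 CPM per kb. The leading assembly factor, Ndufaf2, was at 33.8 CPM per kb. Lowest in their complexes were Cox6a2 at 0.018, Ndufaf3 at 9.96, Ndufs5 at 10.4, Sdhc at 43.0 and Uqcrq at 80.2 CPM per kb. In the ATP synthase it was Atp5g1 at 27.0 CPM per kb. These places depend on the transcript length used, which was 1521 nt for Uqcrq, 3171 nt for Sdhc and 4715 nt for Atp5g1. The pseudogene row Ndufs5-ps averaged 45.1 CPM in the same libraries, so the place of Ndufs5 could rest on how reads were split between the rows. Ndufa4 is listed here under complex I by its symbol, although its protein is known as part of complex IV.

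Relative to vehicle iPSCs of the second experiment, 75 of 90 genes were lower in vehicle Sertoli cells and 11 were higher (limma on log2 CPM, Benjamini-Hochberg adjusted p of at most 0.05 over all 18847 genes tested). Of all genes tested, 45.2% were lower and 43.7% higher in this comparison. The median log2 fold change was -0.69 over the members and -0.04 over all genes. With upper-quartile scaling the median of all genes moved to -0.14 and that of the members to -0.79. Scaling moves all genes of a library alike, so it cannot change the gap between these medians and is no check of it. In vehicle granulosa cells 71 genes were lower and 11 higher, where 45.2% of all genes were lower and 43.1% higher, with a member median of -0.62. Both counts of 11 higher include Cox6a2, which passed the 5 CPM filter only through granulosa libraries. Vehicle PGCLCs had 81 lower and 3 higher, where 37.7% and 36.5% of all genes were lower and higher, with a member median of -0.47. Derived PGCLCs had 76 lower and 4 higher, where 37.4% and 35.9% were lower and higher, with a member median of -0.41. With upper-quartile scaling the member medians were -0.66 in granulosa cells, -0.39 in PGCLCs and -0.36 in derived PGCLCs. These 4 comparisons share the same vehicle iPSC libraries.

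The ATP synthase genes were nearly all lower in each of the other cell types, with 16 of 17 called in Sertoli, granulosa and derived PGCLCs and 17 of 17 in PGCLCs. Atp5b was at 1173, 1146 and 1113 CPM in Sertoli cells, 1506, 1466 and 1471 CPM in granulosa cells and 1718, 1723 and 1749 CPM in PGCLCs, against 2248, 2233 and 2221 CPM in iPSCs. None of these groups overlapped, and the log2 fold changes relative to iPSCs were -0.97, -0.59 and -0.37 with a standard error (SE) of 0.027 each. Atp5a1, the alpha subunit that alternates with beta in the catalytic head, was at 244, 242 and 235 CPM in Sertoli cells and 250, 251 and 249 CPM in granulosa cells, against 628, 625 and 616 CPM in iPSCs. Its log2 fold changes of -1.38 and -1.32 were among the larger falls in the complex. Atp5g1, which encodes the rotating c subunit together with Atp5g2 and Atp5g3, had the largest fall of any member in PGCLCs, at 62, 60.8 and 59.4 CPM against 126, 126 and 130 CPM in iPSCs (log2 fold change -1.07, SE 0.056, limma adjusted p 3.32e-12). The copy row Atp5a1_1, left out by the rule, averaged 373 CPM in Sertoli vehicle libraries, against 972 CPM in the iPSCs, so how reads were split between the rows could move the level of Atp5a1.

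In Sertoli and granulosa cells, the largest fall relative to iPSCs was in complex IV, that of Cox6b2. The largest rise was that of Cox6a2 alone, which became a member only through granulosa libraries, so its rise is described below and not counted as support. Cox4i1, the ubiquitous form of a nuclear regulatory subunit, was at 263, 254 and 244 CPM in Sertoli cells, 351, 340 and 336 CPM in granulosa cells and 426, 414 and 431 CPM in PGCLCs, against 658, 665 and 713 CPM in iPSCs. The log2 fold change was -1.42 for Sertoli, -0.99 for granulosa and -0.68 for PGCLC libraries (SE 0.035 each). Cox7b, a small subunit, was at 75.8, 71.9 and 70.9 CPM in granulosa cells, against 184, 185 and 192 CPM in iPSCs, a log2 fold change of -1.36 (SE 0.046). Cox5a, a structural subunit of complex IV, was at 163, 148 and 167 CPM in derived PGCLCs, against 288 CPM in each of the 3 iPSC libraries, a log2 fold change of -0.85 (SE 0.039). Cox7a2l, a relative of Cox7a2 known for joining complexes III and IV into supercomplexes, was the exception in granulosa cells, at 148, 149 and 141 CPM against 125, 128 and 129 CPM (log2 fold change 0.20, SE 0.042). That rise rested on which iPSCs were the reference: vehicle iPSCs of the dose series had 152, 152 and 154 CPM, and against them the log2 fold change was -0.065 (adjusted p 0.15).

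The isoform pairs of complex IV separated the cell types further. Cox6b2, known as the testis isoform beside the ubiquitous Cox6b1, was at 5.23, 6.01 and 5.62 CPM in Sertoli cells and 2.94, 3.07 and 3.28 CPM in granulosa cells, but at 70.9, 68.9 and 69.1 CPM in PGCLCs, 72.5, 69.8 and 68.4 CPM in derived PGCLCs and 58.8, 54.9 and 62.9 CPM in iPSCs. The log2 fold changes relative to iPSCs were -3.38 in Sertoli cells, -4.23 in granulosa cells, 0.24 in PGCLCs and 0.26 in derived PGCLCs, with an SE of 0.063 each. Its partner Cox6b1 was lower in all 4 cell types, at 142, 146 and 138 CPM in Sertoli cells and 146, 146 and 145 CPM in PGCLCs, against 233, 236 and 248 CPM in iPSCs. Per kb of transcript, Cox6b2 made up 4.01% ± 0.226 of the pair in Sertoli, 2.11% ± 0.15 in granulosa and 33.5% ± 0.341 in PGCLC libraries, against 20.6% ± 0.764 in iPSCs (SD, n = 3 each).

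Cox6a2, the heart and skeletal muscle isoform of Cox6a, was read in number in the gonadal somatic cells. It was at 4.34, 4.73 and 4.43 CPM in vehicle Sertoli cells and 6.57, 6.49 and 6.25 CPM in vehicle granulosa cells. Summed over the 3 vehicle libraries this was 369 reads in Sertoli cells and 617 in granulosa cells, against 1 read in iPSCs of the second experiment, 4 in iPSCs of the dose series and 0 in either PGCLC vehicle group. It passed the 5 CPM filter only through granulosa libraries, so these levels are a description. The cultures of both cell types held smooth muscle markers, at 1218 to 1343 CPM summed in Sertoli and 2204 to 2266 CPM in granulosa vehicle libraries, whose part in the result was not tested. Cox7a1, the muscle isoform of Cox7a, followed another order, at 6.16, 5.91 and 5.16 CPM in Sertoli cells and 1.56, 1.51 and 1.37 CPM in granulosa cells, against 7.43, 9.13 and 6.10 CPM in iPSCs. It was the gene with the largest rise in Sertoli relative to granulosa cells (log2 fold change 1.93, SE 0.143, limma adjusted p 4.66e-10). Cox4i2, the hypoxia-responsive form of Cox4i, did not reach the 5 CPM needed, and made up 0.403% of the Cox4i pair per kb in Sertoli cells, 0.417% in PGCLCs and 0.722% in derived PGCLCs, against 0.0201% in iPSCs.

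**Figure D2:**
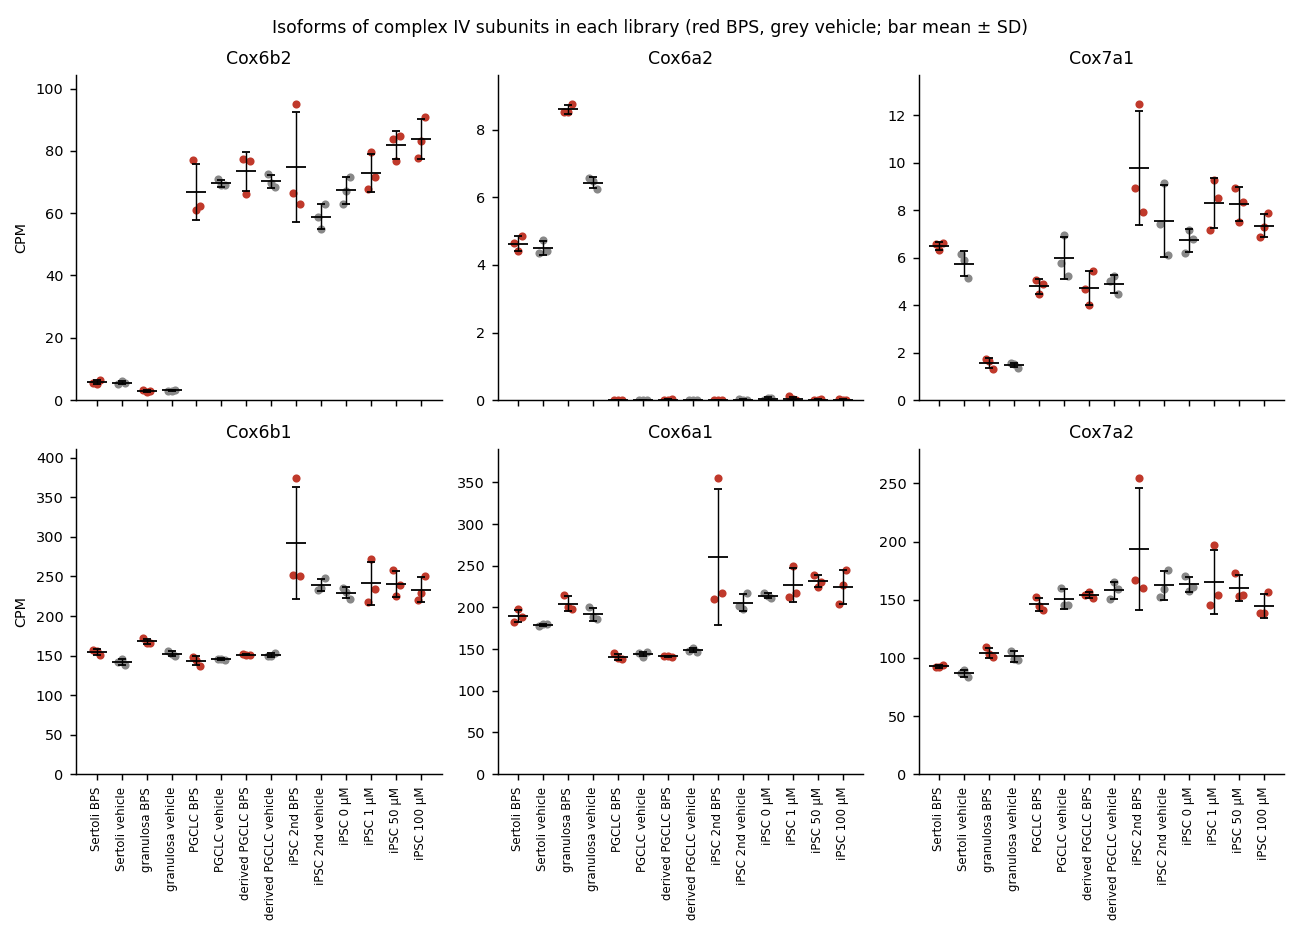
CPM (y axes, linear, from 0, scaled per gene) of 3 complex IV isoforms (top) and their partners (bottom) in each of the 42 libraries by group (x axis, other cell types left of iPSCs, BPS in red left of vehicle in grey, dose series from 0 to 100 µM). Bars are the group mean ± SD of 3 libraries. Cox6b2 is below 7 CPM in Sertoli and granulosa cells and above 50 CPM elsewhere, while Cox6a2 is above 4 CPM in those gonadal cells and at or near 0 elsewhere.

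Complex III moved with complex IV in most genes, with 7 of 8 lower in either gonadal cell type and all 8 lower in both PGCLC groups. The core protein Uqcrc1 was at 74.7, 73.1 and 74.2 CPM in Sertoli cells and 128, 129 and 129 CPM in PGCLCs, against 191, 190 and 193 CPM in iPSCs (log2 fold changes -1.37 and -0.57, SE 0.031), and its copy row Uqcrc1_1 averaged 92.5 CPM in Sertoli cells against 243 CPM in iPSCs, so the split of reads between the rows is uncertain. Uqcr10, a small subunit, was at 56.4, 59.6 and 62.7 CPM in PGCLCs, against 115, 109 and 114 CPM. Uqcrfs1, the Rieske iron-sulphur protein, had log2 fold changes of -0.59 in Sertoli cells and -0.38 in PGCLCs. The exception was Uqcrq, a small subunit of the same complex, at 157, 156 and 147 CPM in Sertoli cells and 178, 171 and 169 CPM in granulosa cells, against 122, 118 and 127 CPM in iPSCs. It was at 64.1, 62.1 and 64.7 CPM in PGCLCs, so that this gene was highest in the gonadal somatic cells and lowest in the germ cell-like cells without overlap (log2 fold changes 0.33, 0.50 and -0.94, SE 0.037).

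In complex II, the flavoprotein Sdha and the iron-sulphur protein Sdhb were lower in all 4 cell types. Sdhb was at 99.3, 101 and 102 CPM in Sertoli cells, 79.3, 79.7 and 77.7 CPM in granulosa cells and 82.0, 80.2 and 84.5 CPM in PGCLCs, against 153, 154 and 152 CPM in iPSCs. Granulosa cells and PGCLCs had the lowest levels and Sertoli cells lay between them and the iPSCs. Sdhc, a membrane anchor, was not called in Sertoli or granulosa cells, with log2 fold changes of -0.01 and -0.02 (SE 0.028), and was lower in PGCLCs (-0.39) and derived PGCLCs (-0.49).

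Subunits of complex I were called in both directions between cell types. Of its 39 subunits 30 were lower and 7 higher in Sertoli cells, 27 lower and 7 higher in granulosa cells, 35 lower and 1 higher in PGCLCs and 33 lower and 3 higher in derived PGCLCs. Ndufb1, a small accessory subunit, was at 39.8, 41.3 and 39.3 CPM in Sertoli cells and 40.1, 39.6 and 35.7 CPM in granulosa cells, against 21.0, 23.6 and 26.0 CPM in iPSCs (log2 fold changes 0.78 and 0.71, SE 0.070). Ndufa8, another accessory subunit, was at 78, 73.2 and 71.3 CPM in Sertoli cells, against 47.1, 49.2 and 50.3 CPM (log2 fold change 0.60, SE 0.042). Both were higher in the gonadal cells without overlap. Ndufa2 was the only complex I subunit higher in PGCLCs (0.18, SE 0.069, limma adjusted p 0.0222) and was also higher in the other 3 cell types. The core flavoprotein Ndufv1, which takes electrons from NADH, was at 89.9, 87.4 and 83.6 CPM in Sertoli cells and 117, 112 and 110 CPM in granulosa cells, against 177, 176 and 182 CPM in iPSCs (log2 fold changes -1.04 and -0.65, SE 0.033). Ndufs5, higher in Sertoli (0.43) and granulosa cells (0.78), has a pseudogene row, Ndufs5-ps, at 55.2 CPM in Sertoli and 70.7 CPM in granulosa cells against 45.1 CPM in iPSCs, and its reads cannot be told apart with certainty.

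The assembly factors, which help build complex I and are not part of it, were lower for 6 of 8 in the gonadal cells and PGCLCs, and for 4 of 8 in derived PGCLCs. Ndufaf6 was at 5.64, 5.81 and 5.74 CPM in Sertoli cells and 8.19, 8.18 and 6.66 CPM in granulosa cells, against 18.9, 19.8 and 17.6 CPM in iPSCs (log2 fold changes -1.70 and -1.29, SE 0.082). Ndufaf4 was at 19.0, 21.6 and 20.6 CPM in Sertoli cells, 37.8, 36.4 and 35.7 CPM in granulosa cells and 33.0, 33.9 and 34.1 CPM in PGCLCs, against 52.8, 54.6 and 56.1 CPM in iPSCs. Sertoli cells were lowest by a wide margin. Ndufaf5 was at 10.7, 12.6 and 12.8 CPM in PGCLCs, against 24.2, 24.7 and 24.8 CPM in iPSCs (log2 fold change -1.03, SE 0.083). Ndufaf3 went the other way in Sertoli cells (0.36, SE 0.071) and was lower in granulosa cells (-0.23).

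**Figure D3:**
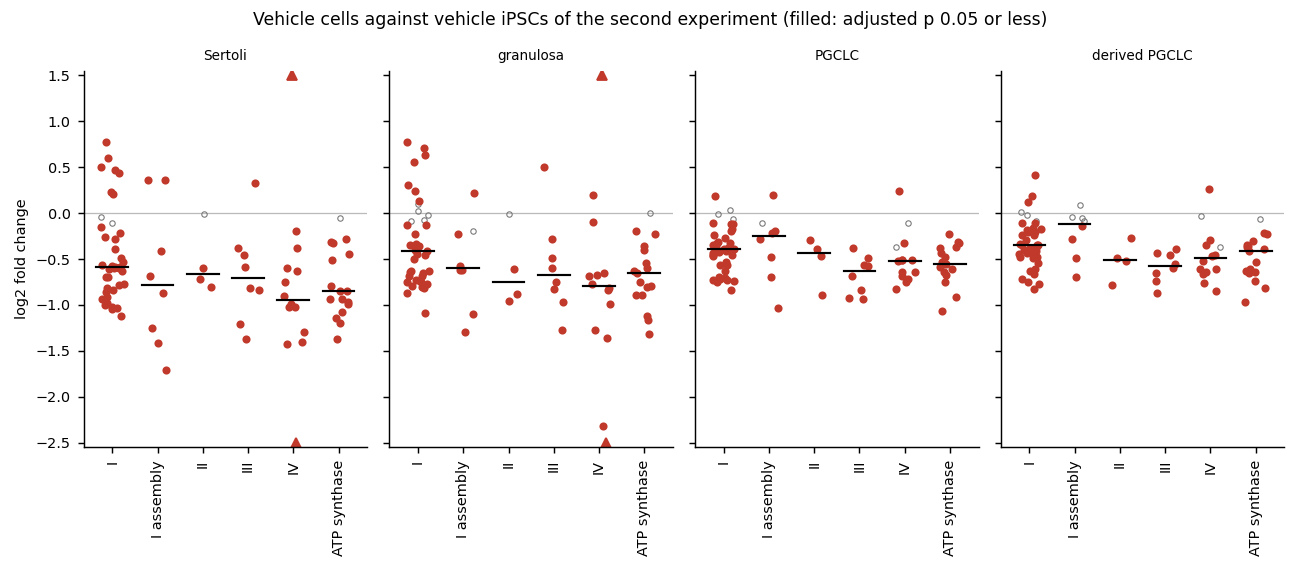
Log2 fold change (y axis) of each member, grouped by complex (x axis), for vehicle libraries of the other cell types relative to vehicle iPSCs of the second experiment. Filled points are members called by limma at an adjusted p of at most 0.05, open points are not called, and triangles mark members beyond the axis range. Most points lie below 0 in every complex, and complex I, the largest set, has the highest number above it.

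Sertoli and granulosa cells differed in 59 of the 90 genes, with 42 lower and 17 higher in Sertoli cells, where 35.9% and 33.7% of all genes were lower and higher. The member median was -0.10, and in a single fit over all 42 libraries 34 genes were called. Upper-quartile scaling gave 6 higher of 68 called. Ndufaf4 (-0.84) and Cox7a2l (-0.83) were lowest relative to granulosa cells. Ndufa12, an accessory subunit, was at 44.1, 46.4 and 38.8 CPM in Sertoli cells against 66.9, 67.5 and 65.2 CPM in granulosa cells (log2 fold change -0.63, SE 0.055). On the higher side, after Cox7a1, stood Cox6b2 (0.85), Ndufaf3 (0.59) and Sdhb (0.35). PGCLCs differed from derived PGCLCs in 38 genes, with 31 lower and 7 higher, where 22.7% and 19.9% of all genes were lower and higher. Here too the share called in both directions together was near that of all genes, and a single fit over all 42 libraries called 14 members. Ndufa11 was at 48.0, 49.0 and 49.9 CPM in PGCLCs, against 60.7, 68.7 and 64.1 CPM in derived PGCLCs, and Ndufa4 at 219, 221 and 222 CPM against 183, 163 and 177 CPM. Neither gene overlapped between the groups (log2 fold changes -0.40 and 0.34). The derived PGCLCs held more of the fibroblast markers, at 259 to 382 CPM, against 62.6 to 64.3 CPM in PGCLCs, whose part in the result was not tested.

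The 2 sets of vehicle iPSCs, cultured in separate experiments, differed in 27 of the 90 genes, with 19 lower and 8 higher in the dose series, where 15.8% and 12.3% of all genes were lower and higher. Over the members the median was -0.01, or 0.01 with upper-quartile scaling. Cox4i1 was at 556, 521 and 538 CPM in the dose series, against 658, 665 and 713 CPM in the second experiment, and Ndufa4 at 189, 177 and 174 CPM, against 224, 223 and 219 CPM. Ranges of both genes were apart (log2 fold changes -0.33 and -0.31). Experiment and any difference between the iPSC cultures cannot be told apart here, and a single fit over all 42 libraries called 8.

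The dose series asked what increasing BPS did to iPSCs. At 100 µM, 24 of 89 genes fell and 1 rose, where 15.4% of all 16349 genes tested fell and 15.3% rose. At 50 µM, 11 fell and 2 rose, where 13.3% and 13.1% of all genes fell and rose, so the share of members called was below that of all genes in both directions. At 1 µM no member was called by limma or by limma-voom on recovered reads (4 had an unadjusted p under 0.05), where 2.94% and 5.61% of all genes fell and rose. The median log2 fold change of the members was -0.02 at 1 µM, -0.04 at 50 µM and -0.14 at 100 µM, where that of all genes was within 0.01 of 0 at each dose, and 79 of 89 genes were below 0 at 100 µM, where 50.0% of all genes were. With upper-quartile scaling the median was 0.01 at 1 µM, within 0.01 of 0 at 50 µM and -0.10 at 100 µM. The 3 doses share their vehicle libraries. Summed over the 90 genes, the libraries held 13339, 13025 and 12743 CPM with vehicle, 11879, 14010 and 12360 CPM at 1 µM, 13167, 11883 and 11974 CPM at 50 µM and 11267, 11601 and 12284 CPM at 100 µM, so that only the highest dose was clear of the vehicle range.

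The genes that fell at 100 µM came from every set but complex IV as grouped by symbol, where Ndufa4, the gene with the largest fall, counts under complex I although its protein is known in complex IV. Counts were 9 of 39 in complex I, 1 of 8 assembly factors, 3 of 4 in complex II, 3 of 8 in complex III, 0 of 13 in complex IV and 8 of 17 in the ATP synthase, and the median log2 fold changes were -0.14, -0.14, -0.22, -0.12, -0.06 and -0.16 in that order. The complex IV sum at 100 µM was 0.968 times that with vehicle, and 1.02 times it when scaled by library size alone, so the direction of that sum depended on scaling.

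In complex II, Sdha was at 421, 422 and 403 CPM with vehicle, 388, 399 and 387 CPM at 1 µM, 387, 376 and 358 CPM at 50 µM and 355, 353 and 355 CPM at 100 µM. The 50 and 100 µM libraries were all below the vehicle libraries, and the log2 fold change at 100 µM was -0.23 (SE 0.046, limma adjusted p 0.00112). Sdhb was at 159, 156 and 152 CPM with vehicle, 131, 155 and 133 CPM at 1 µM, 144, 128 and 128 CPM at 50 µM and 126, 131 and 132 CPM at 100 µM, a log2 fold change at 100 µM of -0.26 (SE 0.061, limma adjusted p 0.00304). Sdhd, the membrane anchor that binds ubiquinone together with Sdhc, fell by 0.17 at 50 µM and by 0.21 at 100 µM on the log2 scale.

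In the ATP synthase, Atp5a1 was at 607, 591 and 570 CPM with vehicle, 543, 582 and 528 CPM at 1 µM, 517, 492 and 475 CPM at 50 µM and 472, 483 and 483 CPM at 100 µM. Both higher doses were clear of the vehicle range, with log2 fold changes of -0.25 at 50 µM (limma adjusted p 0.00149) and -0.30 at 100 µM (limma adjusted p 0.000338, the smallest of the members). The copy row Atp5a1_1 averaged 967, 880, 805 and 776 CPM over vehicle, 1, 50 and 100 µM, the same order as Atp5a1. Atp5b fell at 100 µM alone, at 1870, 1902 and 1888 CPM against 2227, 2188 and 2111 CPM with vehicle (-0.21, SE 0.060). The gamma subunit Atp5c1 fell at both doses (-0.24 each), as did the peripheral stalk subunit Atp5pb (-0.18 at 50 µM and -0.26 at 100 µM) and the c subunit gene Atp5g2 (-0.23 and -0.20), while Atp5g1 (-0.24), the stalk protein Atp5o (-0.22) and the epsilon subunit Atp5e (-0.23) fell at 100 µM alone.

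Among complex I genes, Ndufa4 had the largest fall at both doses. It was at 189, 177 and 174 CPM with vehicle, 142, 184 and 152 CPM at 1 µM, 158, 142 and 132 CPM at 50 µM and 135, 137 and 146 CPM at 100 µM (log2 fold changes -0.33 at 50 µM and -0.37 at 100 µM, SE 0.078). Ndufs8, an iron-sulphur subunit of the core, was at 78.3, 77.1 and 74.6 CPM with vehicle, 65.6, 79.6 and 64.3 CPM at 1 µM, 72.2, 61.6 and 65.6 CPM at 50 µM and 60.3, 62.2 and 64.4 CPM at 100 µM. Both genes were below the vehicle range in all libraries of the 2 higher doses. Further complex I subunits that fell at 100 µM included the core subunits Ndufv1 (-0.20) and Ndufv2 (-0.26) and the accessory subunits Ndufa9 (-0.25), Ndufs4 (-0.24), Ndufb4 (-0.29) and Ndufb4c (-0.27), the last a near copy of Ndufb4 by name, between which reads could be split. The assembly factor Ndufaf4 was at 52.9, 57.8 and 57.7 CPM with vehicle, 47.0, 57.3 and 50.8 CPM at 1 µM, 48.7, 46.5 and 44.3 CPM at 50 µM and 47.3, 48.4 and 48.0 CPM at 100 µM (log2 fold changes -0.27 and -0.23). Ndufaf5 fell at 50 µM alone (-0.20).

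In complex III, the core protein Uqcrc2 was at 240, 236 and 228 CPM with vehicle, 204, 244 and 215 CPM at 1 µM, 226, 208 and 198 CPM at 50 µM and 194, 190 and 193 CPM at 100 µM. The 100 µM libraries lay apart from vehicle (log2 fold change -0.29, SE 0.061, limma adjusted p 0.00154). Uqcrfs1 (-0.17) and Uqcrc1 (-0.14) fell by less.

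Against these falls, Cox6b2 rose. It was at 62.9, 67.2 and 71.8 CPM with vehicle, 67.7, 79.5 and 71.5 CPM at 1 µM, 83.8, 76.6 and 84.9 CPM at 50 µM and 77.8, 83.1 and 90.7 CPM at 100 µM. The libraries of both higher doses were above all vehicle libraries (log2 fold changes 0.28 and 0.32, SE 0.068, limma adjusted p 0.0051 and 0.00188). Per kb it made up 23.7% ± 1.73 of the Cox6b pair with vehicle, 24.2% ± 0.568 at 1 µM, 26.4% ± 0.874 at 50 µM and 27.5% ± 0.305 at 100 µM (SD, n = 3 each). Cox7a1 rose at 50 µM (0.29, SE 0.103, limma adjusted p 0.0408), and at 100 µM its log2 fold change was 0.13 (limma adjusted p 0.365).

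**Figure D4:**
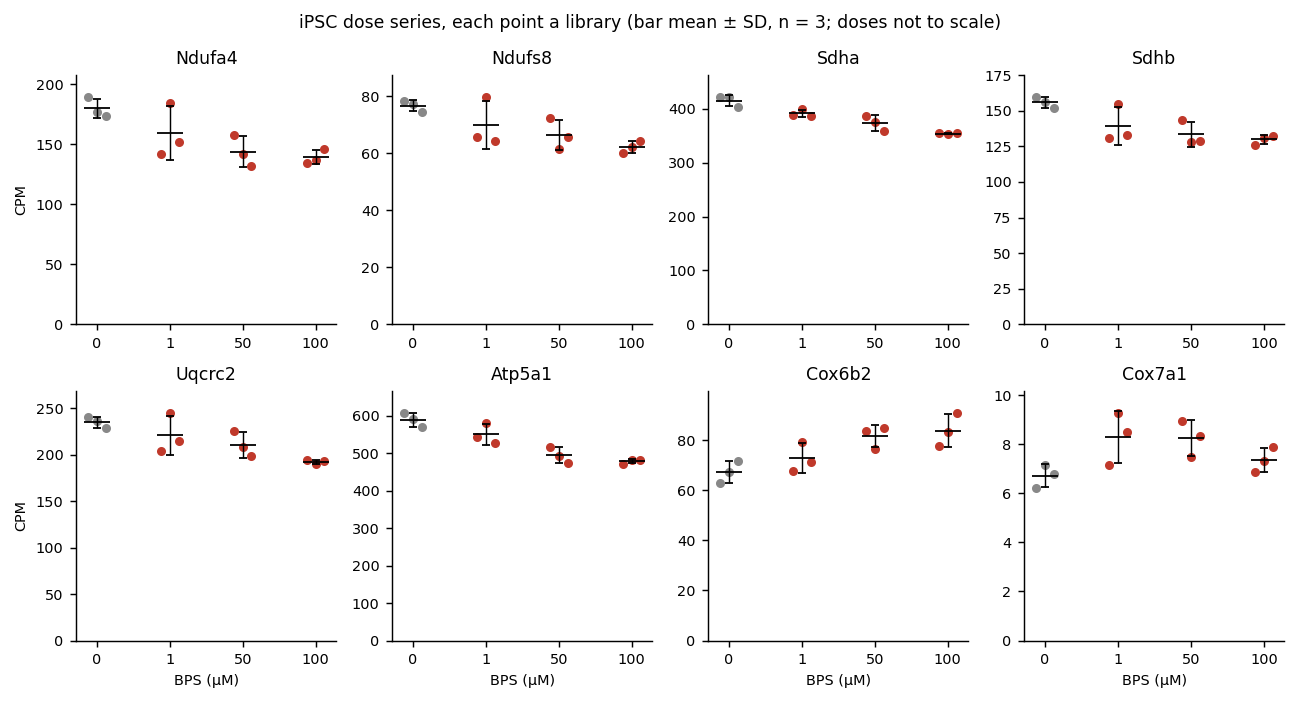
CPM (y axes, linear, from 0, scaled per gene) of selected members in iPSCs of the dose series at 0, 1, 50 and 100 µM BPS (x axis, evenly spaced groups). Each point is a library, with bars at the mean ± SD of the 3. Atp5a1 and Sdha are lower at 50 and 100 µM than in any vehicle library, and Cox6b2 is higher.

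The counts depended on single libraries and on the fit. At 100 µM the fit of only the 6 libraries compared called 49 members and the fit with no filter on low values 14, and the count was 14 without vehicle replicate 1, 15 without 100 µM replicate 1 or 2 and 16 without vehicle replicate 2. At 50 µM it was 27 with only the 6 libraries, 7 with no filter or with upper-quartile scaling, 21 without 50 µM replicate 1, 5 without 50 µM replicate 3 or vehicle replicate 1 and 8 without 50 µM replicate 2 or vehicle replicate 2. At 1 µM it was 13, all lower, without 1 µM replicate 2, the library noted above, and 1 without 1 µM replicate 1.

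Other genes that serve mitochondrial respiration were counted beside the members at high dose. At 100 µM, 9 of 16 genes of the tricarboxylic acid cycle and pyruvate dehydrogenase fell and none rose, as did 22 of 78 genes of the mitochondrial ribosome, 4 of 12 carriers and 6 of 17 regulators, while of 35 assembly factors outside the name rule 6 fell and 1 rose. The regulators that fell were Tfam (-0.27), which packages and transcribes mitochondrial DNA, Gabpa (-0.22), whose protein binds ETS motifs, its partner subunit Gabpb1, Nrf1 (-0.14), and Tfb1m and Twnk. Carriers that fell were cytochrome c (Cycs), the ADP/ATP exchangers Slc25a4 and Slc25a5, and the outer membrane pore Vdac2, at 50 µM as well. The median log2 fold change of the mitochondrial ribosome list was -0.14, near that of the members, and set beside the 15.4% of all genes that fell it was not tested further.

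The second iPSC experiment repeated the 1 µM exposure. No member was called by limma, none had an unadjusted p under 0.05 and limma-voom called none, where 0.0128% of all genes rose and 0% fell. The member median was 0.15, with 82 of 89 genes above 0, where 49.4% of all genes were below 0. This rested on 1 µM BPS replicate 2: without it the median was -0.02, 2 members were called, both lower, and 1484 genes were called in the whole table, against 2 with it. Cox6b1 was at 252, 374 and 251 CPM with BPS, against 233, 236 and 248 CPM with vehicle, and Cox6a1 at 210, 355 and 218 CPM, against 202, 198 and 217 CPM. In contrast Sdha was at 406, 409 and 398 CPM, against 417, 425 and 420 CPM. In the single fit over all 42 libraries 5 members were called, all higher, with that library included. The test of the difference between both 1 µM exposures of iPSCs called no member by limma (1 had an unadjusted p under 0.05 and limma-voom called none), where 0% of all genes were called.

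In Sertoli cells 17 of 90 genes rose after 1 µM BPS and none fell, where 3.76% of 15648 genes tested rose and 1.48% fell. Members had a median of 0.11 and all genes 0.01, and 89 of 90 genes were above 0, where 46.8% of all genes were below 0. The genes that rose were 6 of complex I, 3 of complex III, 4 of complex IV and 4 of the ATP synthase, with none in complex II or among the assembly factors. The sum over the 90 genes was 8690, 8679 and 8374 CPM with BPS, against 8110, 7998 and 7753 CPM with vehicle.

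The changes were small. Cox7c, a small complex IV subunit, was at 27.3, 24.5 and 23.5 CPM with BPS, against 21.2, 21.1 and 18.8 CPM with vehicle (log2 fold change 0.30, SE 0.067, limma adjusted p 0.0173), beside a pseudogene row, Cox7c-ps1, of 9.46 and 9.24 CPM. Atp5j2, a subunit of the membrane part of the synthase, was at 139, 130 and 112 CPM, against 116, 112 and 102 CPM (0.21, SE 0.059). Ndufb7 was at 71.9, 73.5 and 65.7 CPM, against 61.9, 61 and 60.1 CPM (0.20, SE 0.044). The ranges of Cox7c and Ndufb7 were apart, whereas those of Atp5j2 overlapped. Ndufv2, a core iron-sulphur subunit, had the smallest adjusted p, at 110, 109 and 105 CPM with BPS, against 97.1, 96.2 and 92.9 CPM with vehicle (0.18, SE 0.036, limma adjusted p 0.0094). The abundant Atp5b rose as well, at 1266, 1255 and 1210 CPM, against 1173, 1146 and 1113 CPM (0.12, SE 0.032).

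The other genes that rose in Sertoli cells were Ndufa2, Atp5k, Ndufb3, Ndufa3, Uqcrc1, Uqcrc2, Uqcrq, Ndufa9, Atp5g3, Cox6c, Cox6b1 and Cox8a, with log2 fold changes from 0.12 (Cox8a) to 0.20 (Ndufa2). Of the lists outside the members, 6 of 12 carriers rose, among them Slc25a4, Slc25a5, Vdac2 and Vdac3, and 9 of 78 mitochondrial ribosome genes. No regulator of 16 was called by limma. Markers of other cells moved in the same libraries: 3 fibroblast genes summed to 597 to 642 CPM with BPS, against 693 to 739 CPM with vehicle, and 4 Leydig and theca genes to 178 to 182 CPM, against 192 to 199 CPM, while the Sertoli list gave 2703 to 2898 CPM, against 2821 to 2897 CPM. The part of these cells in the result was not tested. The count of 17 was 8 with median-ratio scaling, 4 with upper-quartile scaling and 0 with no filter on low values or in the fit of all 42 libraries, and leaving out BPS replicate 1 gave 0, BPS replicate 2 gave 1, BPS replicate 3 gave 26, vehicle replicate 2 gave 4 and vehicle replicate 3 gave 2.

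In granulosa cells 9 of 90 genes rose after 1 µM BPS and none fell, where 1.95% of 15712 genes rose and 0.656% fell. Their median was 0.07 and that of all genes 0.02, and 82 of 90 genes were above 0, where 39.0% of all genes were below 0. The largest rise was that of Cox6a2, at 8.54, 8.53 and 8.76 CPM with BPS, against 6.57, 6.49 and 6.25 CPM with vehicle (log2 fold change 0.42, SE 0.082, limma adjusted p 0.00876). In Sertoli cells the same gene was at 4.64, 4.41 and 4.85 CPM with BPS, against 4.34, 4.73 and 4.43 CPM, with overlapping ranges. Granulosa libraries with BPS also held more of the 5 smooth muscle markers, at 2448 to 2565 CPM, against 2204 to 2266 CPM with vehicle, whose part in the result was not tested. The ribosomal RNA rows moved there too: all 3 fell, and their share of reads was 0.136% to 0.182% with BPS, against 0.159% to 0.585% with vehicle.

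The other genes that rose in granulosa cells came from each of the complexes. Ndufb4 was at 13.6, 13.0 and 12.7 CPM with BPS, against 10.6, 11.3 and 10.3 CPM with vehicle (0.28, SE 0.069). Uqcr11, a small subunit of complex III, was at 53.2, 52.7 and 51.9 CPM, against 47.9, 47.1 and 45.4 CPM (0.17, SE 0.037). Atp5e, the epsilon subunit, was at 98.7, 90.5 and 92.9 CPM, against 85.3, 82.8 and 82.9 CPM (0.17, SE 0.035), and all 3 genes were without overlap. Cox6b1 (0.14), Ndufb10 (0.15), Uqcrh (0.13), Atp5d (0.12) and Sdhc (0.11) made up the rest. Cox6b1 was called in both cultures. The difference between the Sertoli and the granulosa response was called for no member by limma (13 had an unadjusted p under 0.05 and limma-voom called none), where 1.28% of all genes were called, and it was 1 without Sertoli vehicle replicate 1. None of the other mitochondrial lists had a called gene by limma in granulosa cells. The count of 9 was 5 with median-ratio or upper-quartile scaling, 0 with no filter or in the fit of all 42 libraries, and leaving out vehicle replicate 3 gave 0, BPS replicate 1 gave 1, BPS replicate 2 gave 4 and BPS replicate 3 gave 5.

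**Figure D5:**
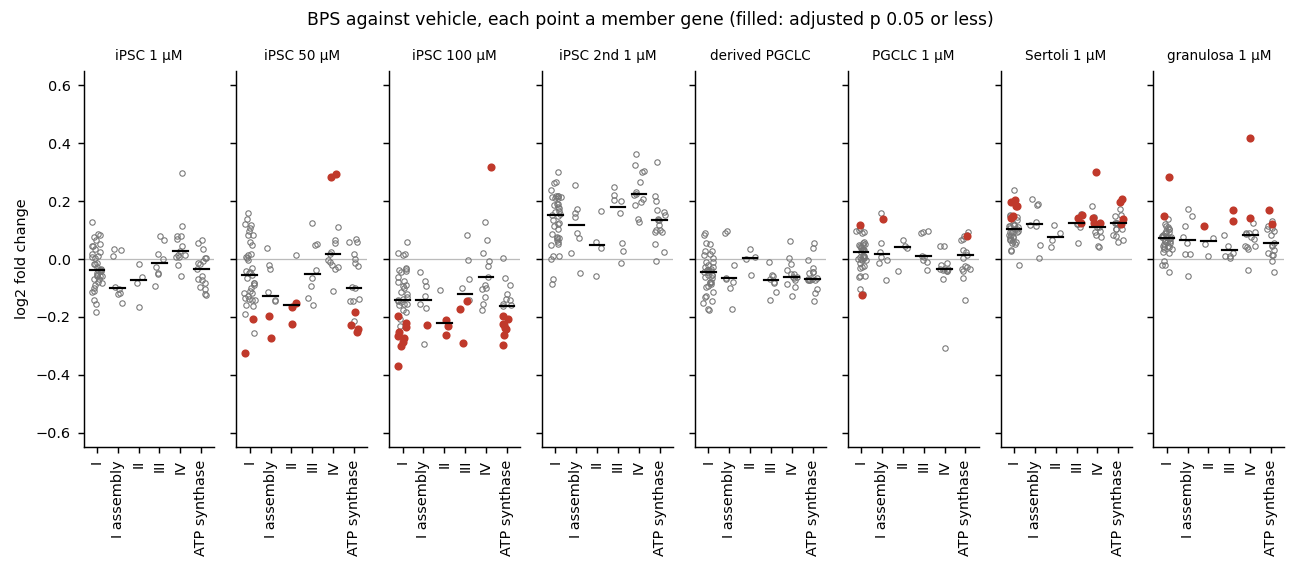
Log2 fold change (y axis) of each member, grouped by complex (x axis), in the comparisons of BPS with vehicle. Filled points are members called by limma at an adjusted p of at most 0.05 and open points are not called. Members lie mostly below 0 at 100 µM in iPSCs and mostly above 0 in Sertoli and granulosa cells.

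In PGCLCs exposed directly, 3 of 89 genes rose and 1 fell, where 15.4% of all 16342 genes rose and 11.3% fell, so the share of members called was below that of all genes. The member median was 0.01, and -0.01 with median-ratio and -0.03 with upper-quartile scaling. Ndufaf4, the assembly factor that fell in iPSCs at 50 and 100 µM, was at 37.0, 38.1 and 36.0 CPM with BPS, against 33.0, 33.9 and 34.1 CPM with vehicle (0.14, SE 0.043, limma adjusted p 0.0293). Ndufv3, a small flavoprotein-arm subunit of complex I, was at 37.3, 36.0 and 35.6 CPM with BPS, against 40.9, 38.8 and 38.9 CPM with vehicle (-0.12, SE 0.043). Both were without overlap. Ndufb11 (0.12) and Atp5c1 (0.08) also rose. The count was 0 without vehicle replicate 1 or 2 and in the fit of all 42 libraries, 1 without BPS replicate 2 or vehicle replicate 3, 9 without BPS replicate 1, and 2 with no filter, median-ratio scaling or limma-voom. Upper-quartile scaling called 4, all lower. The pluripotency list summed to 1969 to 2191 CPM with BPS, against 2529 to 2592 CPM with vehicle, and the 6 germ cell markers to 203 to 233 CPM, against 248 to 254 CPM, and their part in these calls was not tested. Outside the members, 11 of 78 mitochondrial ribosome genes rose and none fell.

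In derived PGCLCs, whose parental iPSCs had been exposed, no member was called by limma or by limma-voom (7 had an unadjusted p under 0.05), where 0% of all genes rose and 0% fell. The member median was -0.06, with 72 of 89 genes below 0 beside 49.4% of all genes, and the sum over the 90 genes was 9588, 9420 and 9327 CPM with BPS, against 9840, 9863 and 9784 CPM with vehicle. The smallest p was that of Cox4i1 (log2 fold change -0.13, SE 0.039, limma adjusted p 0.225). Fibroblast markers ranged from 272 to 439 CPM with BPS and from 259 to 382 CPM with vehicle in these libraries.

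Differences between responses were tested as interactions. No member was called for PGCLCs relative to iPSCs of the second experiment by limma (1 had an unadjusted p under 0.05 and limma-voom called none), where 3.69% of all genes were called. None was called for derived PGCLCs relative to those iPSCs either (3 had an unadjusted p under 0.05 and limma-voom called none), where 0.00580% were. Both rest on the iPSC library that stood apart: without 1 µM BPS replicate 2, 4 members were called for PGCLCs relative to iPSCs, all with a higher response in PGCLCs, and the member median was 0.04, against -0.12 with it. For derived PGCLCs the member median was -0.02 without it, against -0.20 with it, and no member was called by limma either way.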

How the data were processed

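Poly(A) RNA libraries (NEBNext Ultra II Directional) were checked with FastQC, aligned and counted with Rsubread on mm10 and scaled with edgeR's trimmed mean of M values by the authors. For the versions of these counting and scaling packages, annotation, strand setting and low-count filtering, the sources used here give nothing. The deposited values are log2 of CPM plus 0.0313 CPM (a gene with no reads is at -5.00). That constant was subtracted to give CPM, and whole reads were recovered for at least 99.9% of values (within 0.05 of a read).

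Tests were limma 3.58.1 (R 4.3.3) on the deposited log2 values, over genes at 0.5 CPM or more in at least 3 libraries, with Benjamini-Hochberg adjustment over all genes tested and a call at an adjusted p of at most 0.05. The 4 groups of the dose series shared a fit, each other exposure was fitted on its 6 libraries, and cell types on all vehicle libraries. The script was tested on simulated data. No replicates agreed within sampling noise (mean chi-square per gene from 2.02 to 57.83 between libraries of a group). Vehicle PGCLC replicate 1 differed from its fellow replicates at 40.95 and 38.16. Levels per kb used the principal GENCODE transcript, matched for 85 of the 90 genes. Named genes were up to 4 called members with the largest rise and fall per comparison, a list of isoforms and core subunits, and the highest and lowest per kb in each complex. Others are named to complete a count and were chosen after their values were seen. Members and lists were chosen with earlier results of these data known. Alternatives were the added CPM, the filter, scaling, a replicate block, wider or narrower fits, limma-voom on recovered reads and leaving out each library.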

Additional observations from a re-analysis of the deposited data

How the results depend on the processing

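Of 191 named pairs of gene and comparison, other settings gave 1994 values: 1867 kept direction and call, 125 lost the call and 2 turned round. Cox7a2l in granulosa cells (-0.065, adjusted p 0.15) and Ndufb11 in derived PGCLCs (-0.021, adjusted p 0.614) were below 0 with the iPSC dose series as reference, limma as elsewhere. Leaving out single libraries gave 1146 values, of which 994 kept the call and 152 lost it. The cause was not tested in either case.

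Member counts moved by over 1.5 times as follows. With no filter 7 were called at 50 µM, 14 at 100 µM, 0 in either gonadal cell type and 2 in PGCLCs, and these fits test more genes. Median-ratio scaling gave 8 for Sertoli, 5 for granulosa and 2 for PGCLC exposure, and upper-quartile scaling 7 at 50 µM, 4 in Sertoli cells and 5 in granulosa cells. At 50 µM upper-quartile scaling left 2 higher of 7, against 2 of 13, and between PGCLCs and derived PGCLCs 10 higher of 32, against 7 of 38. Fits of only the 6 libraries compared gave 27 at 50 µM and 49 at 100 µM. The fit of all 42 libraries gave 0 for Sertoli, granulosa and PGCLC exposure, 5 in the second iPSC experiment, 34 between Sertoli and granulosa cells, 14 between PGCLCs and derived PGCLCs, 8 between both iPSC experiments and 1 for the PGCLC response relative to iPSCs. limma-voom gave 2 in PGCLCs. The count over the whole table moved as much in places, to 6 genes with no filter and 207 in the fit of all libraries, against 820 in Sertoli cells.

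With a replicate block 28 members were called in Sertoli cells and 5 in granulosa cells, and the other member counts stayed within 1.5 times. In no comparison did all same-numbered libraries deviate together with a correlation over 0.1, so the numbers were not taken as pairs.

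Leaving out single libraries gave ranges of 0 to 13 members called at 1 µM, 5 to 21 at 50 µM, 14 to 33 at 100 µM, 0 to 26 for Sertoli, 0 to 10 for granulosa and 0 to 9 for PGCLC exposure, 0 to 2 in the second iPSC experiment, 0 to 4 for the PGCLC response relative to iPSCs and 0 to 1 for the Sertoli response relative to granulosa cells. Summed CPM of a complex moved by over 1 SD in 52 of 84 group means when scaled by library size alone and in 45 with upper-quartile scaling. Depth limits what can be said of Cox6a2 in iPSCs and PGCLCs, where counts were 0 to 5 reads per group, and the effect of depth on the other members was not tested.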
